A study of Mus musculus with 20 samples.

Results

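The mast cell genes described here were 9 genes chosen by name: the granule proteases Cpa3, Cma1, Mcpt4, Tpsb2 and Tpsab1, the receptors Kit, Fcer1a and Ms4a2, and the enzyme Hdc. Their members were all array probes carrying 1 of these 9 gene names, which gave 14 probes among the 56605 probes and 37074 gene names of the array. They were measured in visceral adipose tissue of 20 mice, with 1 single-colour oligonucleotide array per mouse. All mice were male C57bl/6J animals of the F3 generation, and their fat came from the epididymal depot. The Ref group (6 mice) came from a control lineage that had received high-oleic sunflower oil and was fed a low-fat reference diet. The HFoleic group (6 mice) came from the same control lineage and was fed a high-fat diet rich in sucrose. The HFepa group (8 mice) received that high-fat diet and came from a lineage whose growing diet had been enriched in eicosapentaenoic acid (EPA), from fish oil, over the generations. HFepa and Ref mice therefore differed in lineage and in diet together, whereas HFoleic and Ref mice differed in diet alone. Only mice whose RNA passed an integrity criterion were hybridized. The study fed 8 mice per group, so Ref and HFoleic are subsets of the animals fed, and HFepa is not.

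Mast cells are long-lived tissue immune cells that store histamine, heparin and proteases in secretory granules and release them when IgE bound to the high-affinity receptor FcεRI meets its antigen. Their survival depends on KIT, the receptor for stem cell factor, and the connective tissue type of mast cell is marked by chymases, tryptases and carboxypeptidase A3. In adipose tissue they lie along vessels and connective septa and make up a small share of the cells. In whole tissue, fewer mast cells and less RNA per mast cell cannot be told apart.

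Positions of probes are those of the array files (mm9). The main probe of Cma1 lies at chr14:56560454-56560513 and that of Mcpt4 at chr14:56678589-56678648, in the chymase locus that also holds Cma2. Cpa3 was read at chr3:20115674-20115733, Tpsb2 at chr17:25504819-25504878, Kit at chr5:76052394-76052453, Fcer1a at chr1:175152865-175152924, Ms4a2 at chr19:11690107-11690166 and Hdc at chr2:126419516-126419575. The 250 bases before the transcription start were available from RefSeq (GRCm38.p6) for 7 of the 9 genes. Those of Cpa3 (chr3:20242182-20242431, minus strand), Cma1 (chr14:55944676-55944925, minus strand), Mcpt4 (chr14:56062311-56062560, minus strand), Fcer1a (chr1:173227230-173227479, minus strand) and Ms4a2 (chr19:11623720-11623969, minus strand) are shown because these 5 genes moved together from mouse to mouse, and that of Kit (chr5:75574737-75574986, plus strand) because Kit did not. They run 5′ to 3′, and capitals mark GATA motifs and E-boxes, searched on both strands. The GATA motifs searched were AGATAA, found in 9.99% of all windows of the table, AGATAG, found in 7.71%, TGATAA, found in 7.94%, and TGATAG, found in 6.35%. The E-boxes searched were CACGTG, found in 6.02%, and CATGTG, which is CACATG on the other strand and was found in 12.3%.
Cpa3: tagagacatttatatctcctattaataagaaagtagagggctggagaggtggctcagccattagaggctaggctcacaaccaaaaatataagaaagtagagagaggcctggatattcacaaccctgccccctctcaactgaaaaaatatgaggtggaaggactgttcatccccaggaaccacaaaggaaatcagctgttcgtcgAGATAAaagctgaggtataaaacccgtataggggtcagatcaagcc
Cma1: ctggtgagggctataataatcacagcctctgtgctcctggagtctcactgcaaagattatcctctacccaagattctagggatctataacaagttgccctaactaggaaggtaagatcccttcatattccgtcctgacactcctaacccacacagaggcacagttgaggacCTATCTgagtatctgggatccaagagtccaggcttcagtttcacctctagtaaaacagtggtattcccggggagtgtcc
Mcpt4: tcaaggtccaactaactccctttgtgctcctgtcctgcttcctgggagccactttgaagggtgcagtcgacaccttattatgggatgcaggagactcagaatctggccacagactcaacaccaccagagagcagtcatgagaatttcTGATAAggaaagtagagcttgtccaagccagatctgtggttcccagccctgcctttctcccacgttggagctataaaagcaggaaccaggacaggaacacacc
Fcer1a: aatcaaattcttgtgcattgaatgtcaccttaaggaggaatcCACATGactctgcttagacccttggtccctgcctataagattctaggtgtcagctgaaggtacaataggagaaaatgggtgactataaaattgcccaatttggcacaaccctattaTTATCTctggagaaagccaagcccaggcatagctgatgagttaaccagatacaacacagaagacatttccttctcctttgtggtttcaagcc
Ms4a2: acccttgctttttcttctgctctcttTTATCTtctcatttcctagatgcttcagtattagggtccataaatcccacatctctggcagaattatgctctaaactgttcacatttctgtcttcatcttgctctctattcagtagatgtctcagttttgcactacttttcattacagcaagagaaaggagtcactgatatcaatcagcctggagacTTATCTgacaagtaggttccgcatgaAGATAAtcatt
Kit: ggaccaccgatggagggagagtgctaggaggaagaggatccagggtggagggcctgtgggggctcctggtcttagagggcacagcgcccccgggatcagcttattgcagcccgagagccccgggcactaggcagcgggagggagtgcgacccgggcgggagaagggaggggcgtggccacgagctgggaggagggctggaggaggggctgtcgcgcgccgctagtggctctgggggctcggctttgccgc
At least 1 GATA motif stood in the windows of 6 of the 7 genes, Hdc included, and in 26.5% of all 32851 promoter windows of that table. Ms4a2 held 3 of them, and the GATA motif of Cpa3 began 46 bases before the start. Neither Kit window of the table held any. The Hdc window, which is not shown, held TGATAG, and Hdc did not move with the 5 genes either. An E-box was found in Fcer1a alone among the 7, against 17.6% of all windows. These are matches of letters and not measured binding sites.

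A probe was tested when it stood well above background on at least 6 arrays, and each gene was represented by its brightest tested probe. On this basis 11 of the 14 probes and 8 of the 9 genes were tested, beside 39391 probes and 25619 gene names of the whole array. Tpsab1, a tryptase, was not tested. Its only probe exceeded background clearly in 3 Ref mice, 1 HFoleic mouse and 1 HFepa mouse, and its raw intensities lay between 33.5 and 60. Between 66.1% and 71.9% of spots were well above background on each array, and the 20 arrays lay on 3 slides that each held all 3 groups, with a single HFoleic mouse on slide 2, so that each HFoleic value for slide 2 below rests on 1 mouse. The tissue label was met by the adipocyte markers, 8 of 8 of which were well above background on every array. In 4 libraries, Ref mouse 3, Ref mouse 6, HFoleic mouse 5 and HFepa mouse 4, the mean log2 intensity of 8 testis markers was 9.04 to 9.55, against 7.94 to 8.43 in the other 16. In those 4 libraries 3 of the 8 markers, the spermatid genes Prm1, Prm2 and Tnp1, were above every other library (Prm1 9.65 to 10.88 against 5.51 to 6.75). The other markers, Tnp2, Odf2, Insl3, Cyp17a1 and Star, overlapped with the other 16 libraries. Cyp17a1 was at 10.40 to 11.06 in the 4 and at 10.55 to 11.86 in the 16. The part of these markers in the results below was not tested. Values without the 4 libraries stand beside the calls and directions of the tested mast cell genes that change in HFoleic against Ref. For the genes of the wider lists only the number called without the 4 libraries is given, not which calls held. For the cell type markers no such value is given.

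With the high-fat diet in the control lineage (HFoleic against Ref), Kit was the only one of the 8 tested mast cell genes that passed the test, and it was lower. None of the 8 passed between HFepa and Ref or between HFepa and HFoleic. Across all genes the shares called were 31.8% in HFoleic against Ref (15.2% called higher and 16.7% called lower), 2.46% in HFepa against Ref and 0% in HFepa against HFoleic, by limma with Benjamini-Hochberg adjustment over all probes at an adjusted p of 0.05. The 1 call among 8 mast cell genes, or 1 lower call among 8, was therefore below or near the share over all genes. Both contrasts with Ref use the same 6 Ref mice. The estimates of all 8 genes were below 0 in HFoleic against Ref, with a median log2 fold change of -0.39, beside -0.04 over all genes. Without the 4 libraries Fcer1a was at 0.049 and the other 7 were below 0. The median was -0.18 in HFepa against Ref and 0.17 in HFepa against HFoleic. At an unadjusted p of 0.05, 0 of the 8 passed in HFepa against Ref and 1 passed in HFepa against HFoleic (Tpsb2). All log2 values below are quantile-normalized log2 intensities, compared within a gene and never between genes.

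**Figure D1:**
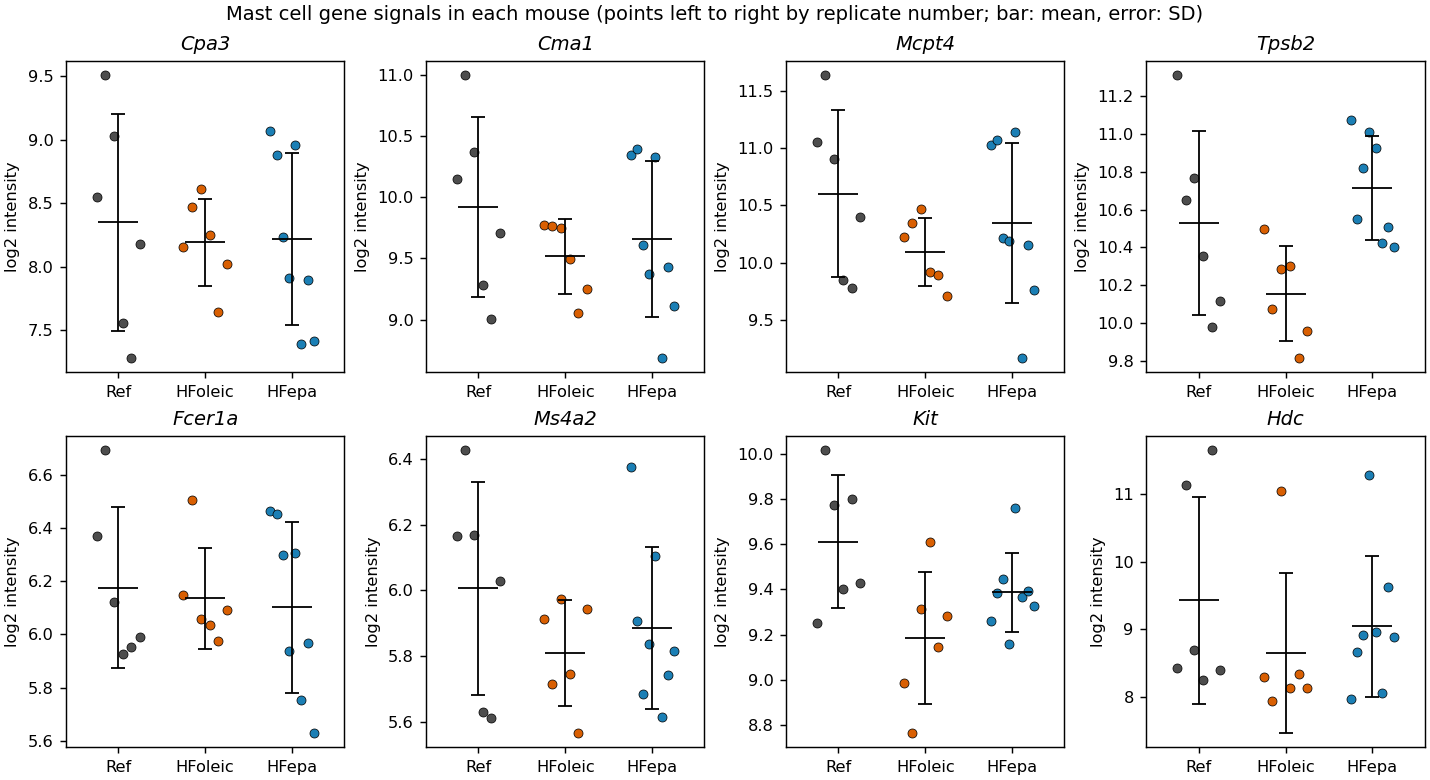
Quantile-normalized log2 intensity (vertical axis) of the 8 tested mast cell genes in 6 Ref, 6 HFoleic and 8 HFepa mice; each point is a mouse, the horizontal bar is the group mean and the error bar its SD. The groups overlap for all 8 genes, and Hdc shows 4 mice above 11 on the log2 scale.

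Cpa3 encodes carboxypeptidase A3, which trims peptides in the mast cell granule together with chymase. Its log2 intensity was 8.54, 9.51, 9.03, 7.55, 7.28 and 8.18 in the Ref mice, with the highest and the lowest of all 20 mice both in this group. In HFoleic the 6 mice ranged from 7.64 to 8.61 with a median of 8.20. In HFepa the 8 mice ranged from 7.39 to 9.07 with a median of 8.07. The group means were 8.35 ± 0.85, 8.19 ± 0.34 and 8.22 ± 0.68 (SD, n = 6, 6 and 8), so the groups lay inside one another. The log2 fold change was -0.16 ± 0.36 (SE; adjusted p = 0.78) in HFoleic against Ref and 0.03 ± 0.33 (adjusted p = 0.98) in HFepa against HFoleic. The latter has a 95% confidence interval from -0.67 to 0.72, so that a difference of that size in either direction could not be told from 0.

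Cma1 and Mcpt4 encode chymases, the chymotrypsin-like proteases of connective tissue mast cells, Mcpt4 being the main chymase of the mouse. Cma1 was at 9.01 to 10.997 in Ref (median 9.93), 9.06 to 9.78 in HFoleic (median 9.63) and 8.69 to 10.39 in HFepa (median 9.52). Mcpt4 was at 9.78 to 11.64 in Ref (median 10.65), 9.71 to 10.47 in HFoleic (median 10.07) and 9.17 to 11.14 in HFepa (median 10.21). For both genes the HFoleic mice sat within the range of the HFepa mice, and Ref mouse 3 was the highest of the 20. In HFoleic against Ref the log2 fold change was -0.40 ± 0.32 for Cma1 (adjusted p = 0.37) and -0.51 ± 0.33 for Mcpt4 (SE; adjusted p = 0.26). The Mcpt4 difference was not alike on the 3 slides, being -1.39 on slide 1, 0.22 on slide 2 and -0.16 on slide 3. In HFepa against HFoleic the estimates were 0.14 ± 0.30 for Cma1 and 0.25 ± 0.31 for Mcpt4 (adjusted p = 0.83 and 0.70).

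Tpsb2 encodes a tryptase, a trypsin-like protease that is stored as a tetramer on heparin. Its log2 intensity was 11.31, 10.65, 10.77, 10.35, 9.98 and 10.12 in Ref and 10.50, 10.08, 10.28, 10.30, 9.82 and 9.96 in HFoleic. In HFepa it ranged from 10.40 to 11.07 with a median of 10.69, so that HFoleic mouse 1 at 10.50 was the only HFoleic mouse that reached the HFepa range. Tpsb2 was estimated at 0.56 ± 0.18 (SE) higher on the log2 scale in HFepa than in HFoleic, a 1.47-fold difference that did not pass the adjustment (adjusted p = 0.13). The difference was 0.55, 0.59 and 0.61 on slides 1, 2 and 3. In 13 of 14 alternative settings it did not pass either, with adjusted p up to 0.28. It passed with arrays weighted by their quality (0.57, adjusted p = 0.0375), a setting in which the probes called over the whole array rose from 1 to 4527, or 11.5%. Against Ref, the estimate was -0.37 ± 0.19 in HFoleic (adjusted p = 0.14) and 0.19 ± 0.18 in HFepa (adjusted p = 0.59). The probe shared no run of more than 14 bases with a probe of another gene name. Probes were compared with probes and not with whole transcripts, so shared runs cannot show which transcripts the probe binds. The gene names whose deviations from the group means were most like those of Tpsb2 included Gm4470 (r = 0.93 over 20 mice), with which its probe shares a run of 11 bases, and Rnase10 (r = 0.91), a gene of the epididymis marker list. In HFepa against HFoleic Gm4470 was at 0.48 and Rnase10 at 0.54 (adjusted p = 0.13 and 0.12), beside 0.56 for Tpsb2. Of the epididymis list 3 of 11 genes were tested and 0 were called in any comparison. The mean level of that list over 3 genes had r = -0.08 with Tpsb2 (rho = 0.035, n = 20). With the other tested mast cell genes its r lay between 0.21 (Ms4a2) and 0.46 (Hdc), with 0.43 for Cma1 and 0.44 for Mcpt4. The rho with these genes lay between 0.086 (Ms4a2) and 0.59 (Hdc). The mean log2 level of the list was 7.06 to 8.73 in Ref, 6.80 to 7.53 in HFoleic and 6.92 to 9.04 in HFepa. It was highest in HFepa mouse 2 (9.04) and Ref mouse 3 (8.73), and the next was Ref mouse 6 at 7.97. The part of these transcripts in the signal of Tpsb2 or of the other mast cell genes was not tested. None of the other mast cell genes came as close to Tpsb2 as Gm4470 and Rnase10, the highest being Ms4a2 at r = 0.62.

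Fcer1a encodes the IgE-binding α chain of FcεRI and Ms4a2 its β chain, and both stood low on the array. Fcer1a was at 5.93 to 6.69 in Ref (median 6.06), 5.97 to 6.51 in HFoleic (median 6.07) and 5.63 to 6.47 in HFepa (median 6.13). Ms4a2 was at 5.61 to 6.43 in Ref (median 6.10), 5.57 to 5.97 in HFoleic (median 5.83) and 5.61 to 6.37 in HFepa (median 5.83). The 3 groups overlapped throughout for both, and Ms4a2 was well above background in 5 of the 6 HFoleic mice. The HFoleic against Ref log2 fold change was -0.04 ± 0.16 for Fcer1a (adjusted p = 0.88) and -0.20 ± 0.14 for Ms4a2 (SE; adjusted p = 0.31). A further Ms4a2 probe was above background on 0 of 20 arrays.

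Kit encodes the receptor tyrosine kinase for stem cell factor and is also made by melanocytes, germ cells and blood progenitors. Its log2 intensity was 9.25, 10.02, 9.77, 9.40, 9.80 and 9.43 in Ref and 8.99, 8.77, 9.31, 9.61, 9.14 and 9.28 in HFoleic. In HFepa it ranged from 9.16 to 9.76 with a median of 9.38. The lowest 3 values among the 20 mice were all from HFoleic, but HFoleic mouse 6 lay above 3 Ref mice, so the groups overlapped. Kit was 1.34-fold lower in HFoleic than in Ref (log2 fold change -0.43 ± 0.14 SE, adjusted p = 0.024), with differences of -0.34, -0.65 and -0.56 on slides 1, 2 and 3. The other 2 Kit probes fell too, by 0.51 ± 0.14 and 0.42 ± 0.11 on the log2 scale (adjusted p = 0.011 and 0.0058). They lie side by side on 1 transcript, at chr5:76048262-76048321 and chr5:76048202-76048261, so they are not 2 separate readings. HFepa lay between the groups, -0.22 ± 0.13 from Ref (adjusted p = 0.34) and 0.20 ± 0.13 from HFoleic (adjusted p = 0.39). Without the 4 libraries high in testis markers the Kit difference was -0.31 (adjusted p = 0.16) and the other 2 probes were at -0.28 and -0.30 (adjusted p = 0.15 and 0.091), so the call was lost at 4 against 5 mice. It was also lost without Ref mouse 3 (-0.35, adjusted p = 0.066), Ref mouse 4 (-0.40, adjusted p = 0.053), Ref mouse 6 (-0.39, adjusted p = 0.055) or HFoleic mouse 4 (-0.34, adjusted p = 0.070).

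**Figure D2:**
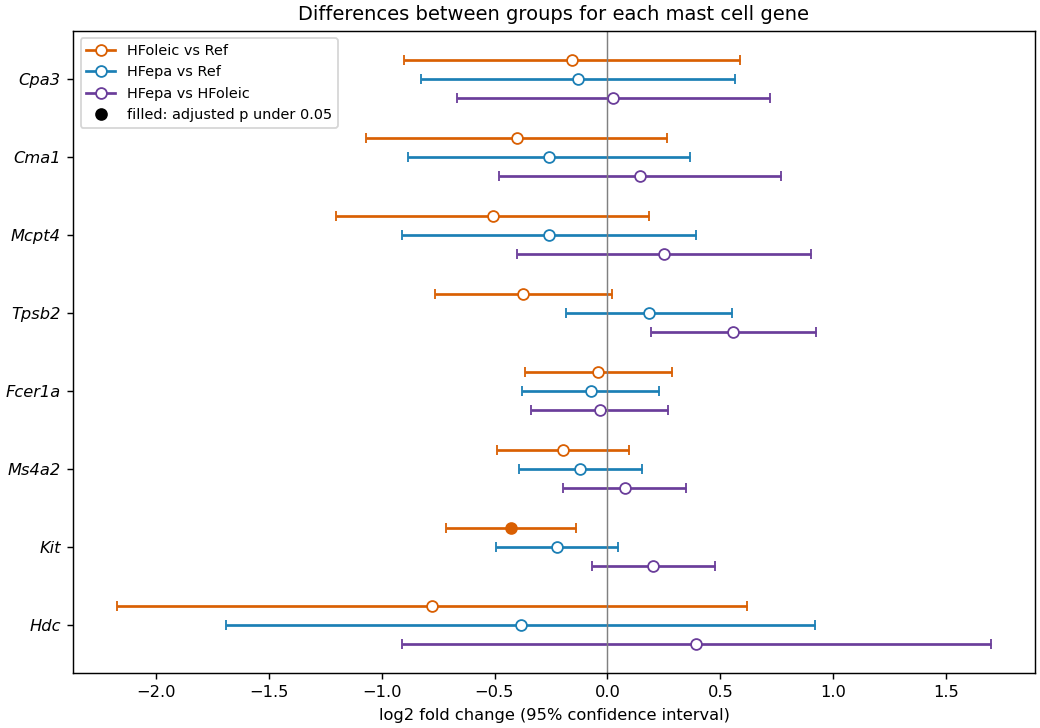
Log2 fold change (horizontal axis) of the 8 tested mast cell genes in the 3 comparisons, with 95% confidence intervals from limma; filled symbols passed an adjusted p of 0.05. Kit in HFoleic against Ref (-0.43) is the only filled symbol, and the interval of Tpsb2 in HFepa against HFoleic (0.19 to 0.92) is the only other one that leaves out 0.

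Hdc encodes histidine decarboxylase, which makes histamine. Its main probe stood at 8.43, 11.13, 8.69, 8.25, 11.65 and 8.40 in Ref, at 8.29, 7.94, 11.04, 8.13, 8.34 and 8.13 in HFoleic and at 7.96, 8.67, 8.92, 11.28, 8.95, 8.05, 9.62 and 8.88 in HFepa. The 4 mice above 11, Ref mouse 3, Ref mouse 6, HFoleic mouse 5 and HFepa mouse 4, were the 4 libraries highest in the testis markers. A dimmer probe of the same transcript was well above background on 5 arrays, those of these 4 mice and of HFepa mouse 7, whose Hdc value was next in order. The within-group SD of Hdc was 1.25, larger than that of 99% of genes. The genes most like Hdc over the 20 mice were Fam166b, Cfap53, Gstm5 and Nme5, with r from 0.83 to 0.90 over the 16 mice left without these 4. Over the same 16 mice the r of Hdc with the other 7 mast cell genes lay between -0.17 and 0.28. The log2 fold change in HFoleic against Ref was -0.78 ± 0.67 (SE; adjusted p = 0.41). Without the 4 libraries the group means were 8.44 ± 0.19 in Ref, 8.17 ± 0.16 in HFoleic and 8.72 ± 0.57 in HFepa (SD, n = 4, 5 and 7), and the HFepa against Ref difference turned from -0.38 to 0.28 (adjusted p = 0.78 and 0.58). A probe of another Hdc transcript had the same direction in HFoleic against Ref, with a smaller SE, and was called. Its log2 fold change in HFoleic against Ref was -0.55 ± 0.15 (SE; adjusted p = 0.011), and -0.32 without the 4 libraries (adjusted p = 0.12). The call was also lost with the replicate number as a block (-0.44, adjusted p = 0.056). In HFepa against Ref this probe was at -0.50 ± 0.14 (SE; adjusted p = 0.067), and at -0.34 without the 4 libraries (adjusted p = 0.26), where the main probe was above 0. In HFoleic against Ref the 2 tested probes of Hdc therefore agreed in direction and disagreed on the call. Without the 4 libraries the main probe was at -0.28 there (adjusted p = 0.47), and neither probe was called.

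**Figure D3:**
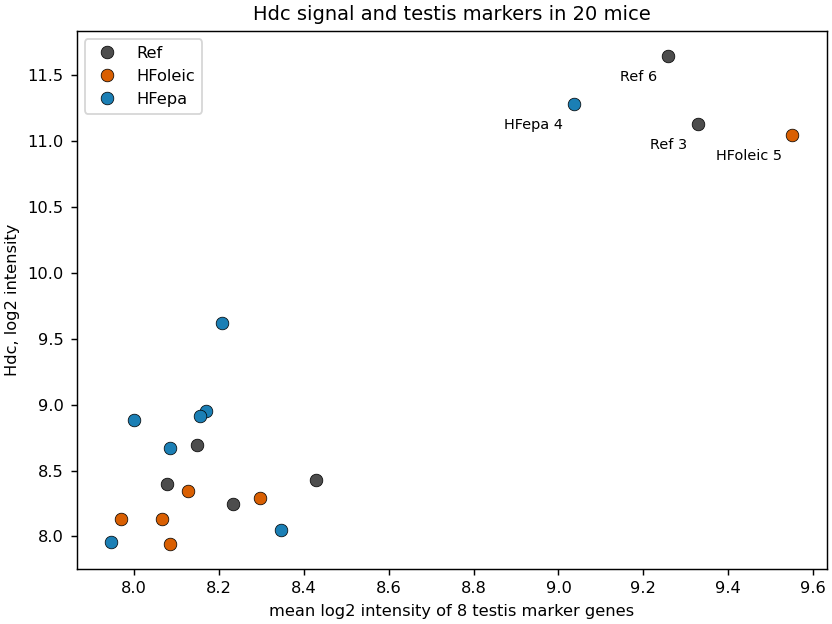
Log2 intensity of Hdc (vertical axis) against the mean log2 intensity of 8 testis marker genes (horizontal axis) in 20 mice, coloured by group. The 4 named libraries stand apart on both axes, above 9 for the testis markers and above 11 for Hdc.

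For Cpa3, Cma1, Mcpt4, Fcer1a and Ms4a2 the SD between mice of the same group exceeded every fitted difference between groups. The within-group SD was 0.66 for Cpa3, 0.59 for Cma1 and 0.62 for Mcpt4, larger than that of 95.9%, 94.9% and 95.3% of all tested genes, whose median SD was 0.17. From the lowest to the highest of the 20 mice the signal spanned 4.67-fold for Cpa3, 4.95-fold for Cma1 and 5.53-fold for Mcpt4. The order of the mice was nearly the same in the 3 genes. Ref mouse 3 ranked first in all of them, and HFepa mouse 6 ranked 19 for Cpa3 and last, at 20, for Cma1 and Mcpt4.

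Deviations from the group means were compared for the 28 pairs of tested genes, with permutations within groups. Cpa3 and Cma1 gave r = 0.98 and rho = 0.96 (n = 20, permutation p = 1e-05, the smallest that 100000 permutations can give, adjusted p = 7e-05 for both). Their r was 0.97 without the 2 mice farthest in Cpa3 and 0.97, 0.99 and 1.00 within slides 1, 2 and 3. Cpa3 and Mcpt4 gave r = 0.94 and rho = 0.94 (n = 20, permutation p = 1e-05, adjusted p = 7e-05 for both), with 0.93 without the 2 farthest mice and 0.95, 0.97 and 0.95 within slides. Cpa3 was also related to Fcer1a (r = 0.84, rho = 0.86, n = 20, permutation p = 5e-05 and 3e-05, adjusted p = 0.000175 and 0.00014) and to Ms4a2 (r = 0.85, rho = 0.83, n = 20, permutation p = 3e-05 and 8e-05, adjusted p = 0.00014 and 0.00032). These were 0.81 and 0.78 without the 2 farthest mice. Within the slides the r with Fcer1a was 0.96, 0.93 and 0.51, and that with Ms4a2 was 0.86, 0.78 and 0.94. The relation to Tpsb2 was looser (r = 0.60, rho = 0.67, n = 20, permutation p = 0.0195 and 0.00455, adjusted p = 0.039 and 0.0116) and uneven across slides, at 0.44, 0.10 and 0.97. Without the 4 libraries high in testis markers these 5 values of r ranged from 0.61 for Tpsb2 to 0.97 for Cma1.

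Kit and Hdc stood outside this pattern. Cpa3 and Kit gave r = 0.28 and rho = 0.24 (n = 20, permutation p = 0.268 and 0.331, adjusted p = 0.441 and 0.545), with 0.25 without the 2 farthest mice. Cpa3 and Hdc gave r = -0.06 over the 16 mice without the 4 that stand apart in Hdc. Within slides the r of Cpa3 with Kit was 0.36, -0.09 and 0.18. The name most like Kit over the 20 mice was Gm4737 (r = 0.81). The 10 most alike also held Apol9b (0.76), Abcg5 (0.75) and the B cell gene Cd79a (0.70). Likeness to B cell markers was not particular to Kit. Their mean level had r = 0.60 with Kit, 0.60 with Cpa3 and 0.55 with Cma1 (n = 20). With the remaining tested genes it lay between -0.10 (Hdc) and 0.48 (Ms4a2). The mean level of the melanocyte markers had r = -0.65 with Kit and -0.32 with Cpa3.

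**Figure D4:**
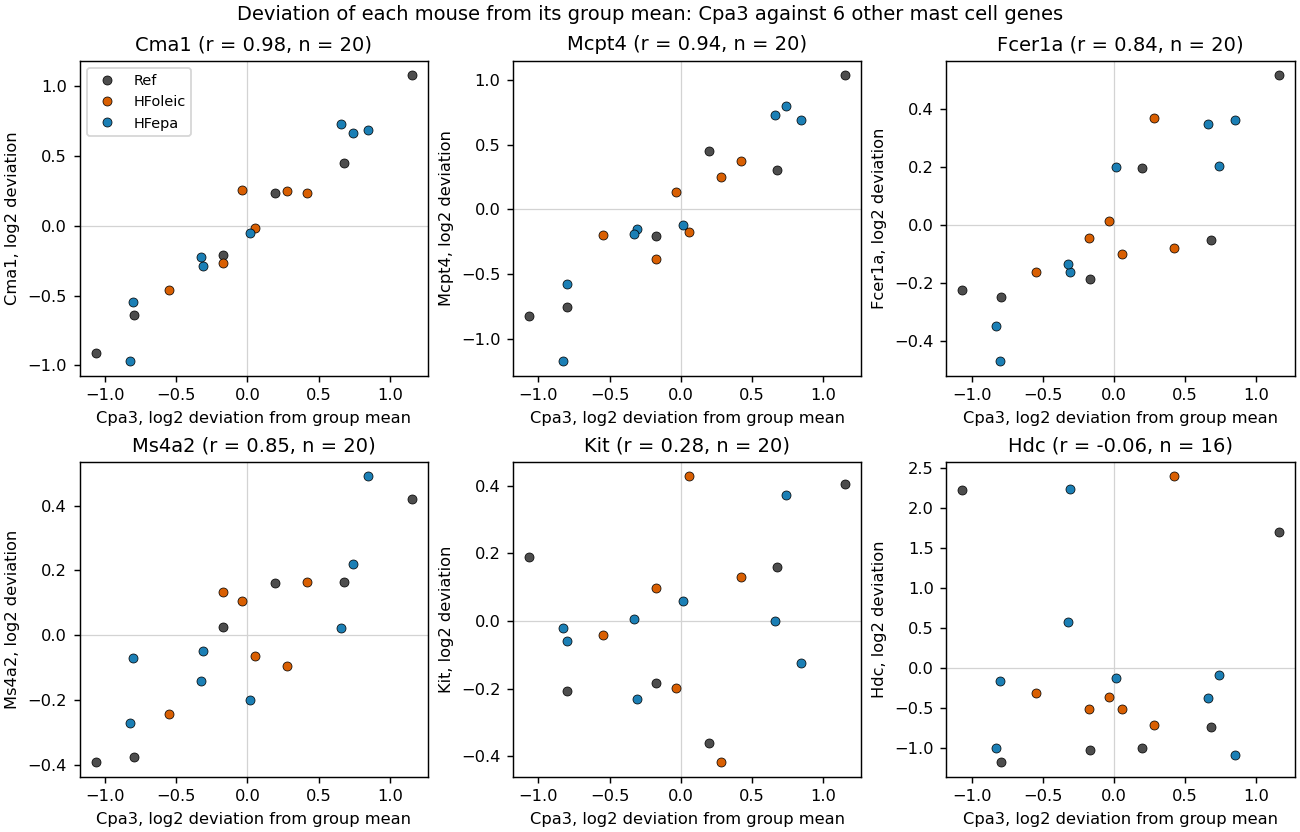
Deviation of each of 20 mice from its group mean on the log2 scale, Cpa3 on the horizontal axis against 6 other mast cell genes on the vertical axes, coloured by group, with r over 20 mice in each panel title except Hdc, whose r leaves out the 4 mice above 11. Cma1, Mcpt4, Fcer1a and Ms4a2 line up with Cpa3 (r from 0.84 to 0.98), and Kit (0.28) and Hdc (-0.06 over 16 mice) do not.

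Outside the 9 genes, the name most like their mean deviation was Cma2 (r = 0.96 over 20 mice), a chymase gene that lies between Cma1 and Mcpt4. It was followed by Mrgprb2 (r = 0.86), the mouse mast cell receptor for basic peptides and many drugs, then Flnc, Thbs3 and Fgf18 (0.79, 0.79 and 0.79), and Tph1 (0.78), the enzyme of serotonin synthesis. Tpsg1, a membrane-anchored tryptase of mast cells, was the last of the 10 (0.76). Tpsb2, Tpsg1 and Prss34 lie in the same stretch of chr17, and the r with Cpa3 was 0.79 for Tpsg1 and 0.77 for Prss34 but 0.24 for Prss28 and -0.47 for Prss29, which lie between them. In the chymase locus the r with Cpa3 was 0.96 for Cma2 and 0.67 for Ctsg, the protease cathepsin G. It was -0.01 for Mcpt9, 0.14 for Gzmb and -0.07 for the pseudogene Mcpt-ps1, which lies between Cma1 and Cma2. Mcpt9, Gzmb and Prss29 stood low on the array (mean log2 intensity 5.58, 5.98 and 5.54), as did Tpsg1 (5.76) and Ctsg (6.05). The mucosal mast cell proteases Mcpt1 and Mcpt2 and the basophil protease Mcpt8 did not pass the filter.

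The wider mast cell genes were described in 8 lists of 101 genes, of which 89 were tested. In HFoleic against Ref 36 rose and 7 fell, so that 48.3% were called against 31.8% of all genes, and the median log2 fold change was 0.18. Over all genes 15.2% were called higher and 16.7% lower, the shares to set beside the counts of each list and cell type below. In HFepa against Ref 1 rose, and in HFepa against HFoleic none was called. Macrophages express several of these genes, and their markers moved in the same comparison. Of 11 macrophage markers 9 were higher in HFoleic than in Ref, with a mean log2 level of 11.14 to 11.68 in Ref, 12.09 to 13.21 in HFoleic and 11.16 to 13.12 in HFepa. The eosinophil markers moved too, 4 of 8 being higher. Their mean log2 level was 6.54 to 7.002 in Ref, 7.47 to 7.87 in HFoleic and 6.79 to 7.92 in HFepa. Of the fibroblast and progenitor markers 3 of 7 were higher. Their mean log2 level was 12.20 to 12.87 in Ref, 12.82 to 13.52 in HFoleic and 12.29 to 13.04 in HFepa. The part of these cell types in the lists was not tested. From mouse to mouse, the mean level of the other protease list had r = 0.94 with Cpa3 (n = 20, deviations from group means). It was 0.61 for the granule list, 0.45 for the Kit ligand list and -0.02 for histamine storage. The IgE receptor signalling, surface receptor, lipid mediator and cytokine lists were at 0.30, 0.33, 0.22 and 0.22.

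In the list of other mast cell and basophil proteases 0 of 6 tested genes were called, Cma2 being at -0.47 ± 0.31 and Tpsg1 at -0.28 ± 0.15 (SE). Of 7 tested genes for histamine storage, breakdown and receptors none was called. Slc18a2, the vesicle pump that loads histamine into granules, was at -0.05 and Hnmt, which methylates histamine, at -0.28 (adjusted p = 0.72 and 0.13). Mrgprb2 was at -0.26 (adjusted p = 0.081), and its relative Mrgprx2 fell by 0.37 on the log2 scale (adjusted p = 0.0199).

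In the list of IgE receptor signalling 11 of 18 genes were higher and 2 lower in HFoleic than in Ref. Fcer1g, the γ chain that FcεRI shares with other Fc receptors, rose by 1.74 on the log2 scale (adjusted p = 0.0018), whereas the α and β chains were not called. The adaptors Lat2 and Lcp2 and the kinases Syk and Lyn rose by 2.59, 1.40, 1.48 and 0.78 (adjusted p = 0.00144, 0.000765, 0.00139 and 0.00082). Lyn was the 1 gene of the 8 lists called in HFepa against Ref (0.51, adjusted p = 0.0498), and in 8 of 14 alternative settings, among them without the 4 libraries, no list gene was called. Plcg1 and Gab2 fell by 0.35 and 0.28.

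In the list of Kit ligand, survival and transcription factors 4 of 13 rose and 2 fell. Kitl, which encodes stem cell factor, was at -0.22 (adjusted p = 0.094) and Mitf, a transcription factor needed by mast cells, at 0.31 (adjusted p = 0.18). Gata2 and Tal1, which encode blood and mast cell transcription factors, fell by 0.67 and 0.38 (adjusted p = 0.0064 and 0.017), while Il1rl1, the receptor for interleukin 33, and Ptpn6 rose by 0.63 and 1.34 (adjusted p = 0.0096 and 0.00485). Of the 18 tested surface receptor genes 12 rose and 2 fell, among them Cd300a at 1.80 and Cd200r4 at 1.60, and those that fell were Mrgprx2 and Icam1. Among the lipid mediator enzymes 4 of 8 rose, including Hpgds at 1.28, Alox5ap at 1.45 and Ltc4s at 0.55 (adjusted p = 0.0068, 0.0036 and 0.0059). Of the granule proteoglycan and amine genes 2 of 8 rose, Srgn, the core protein of granule proteoglycan, at 0.32 and Hs6st1 at 0.67. Of 11 tested cytokine genes 3 rose and 1 fell, Ccl2 at 2.26 and Vegfa at -0.81 being the largest in each direction. With 31.8% of all genes called in HFoleic against Ref, the counts for the granule and cytokine lists were near that share. Without the 4 libraries high in testis markers 25 of these 89 genes were called in HFoleic against Ref, while the share of all probes called fell from 30.8% to 17.1%.

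**Figure D5:**
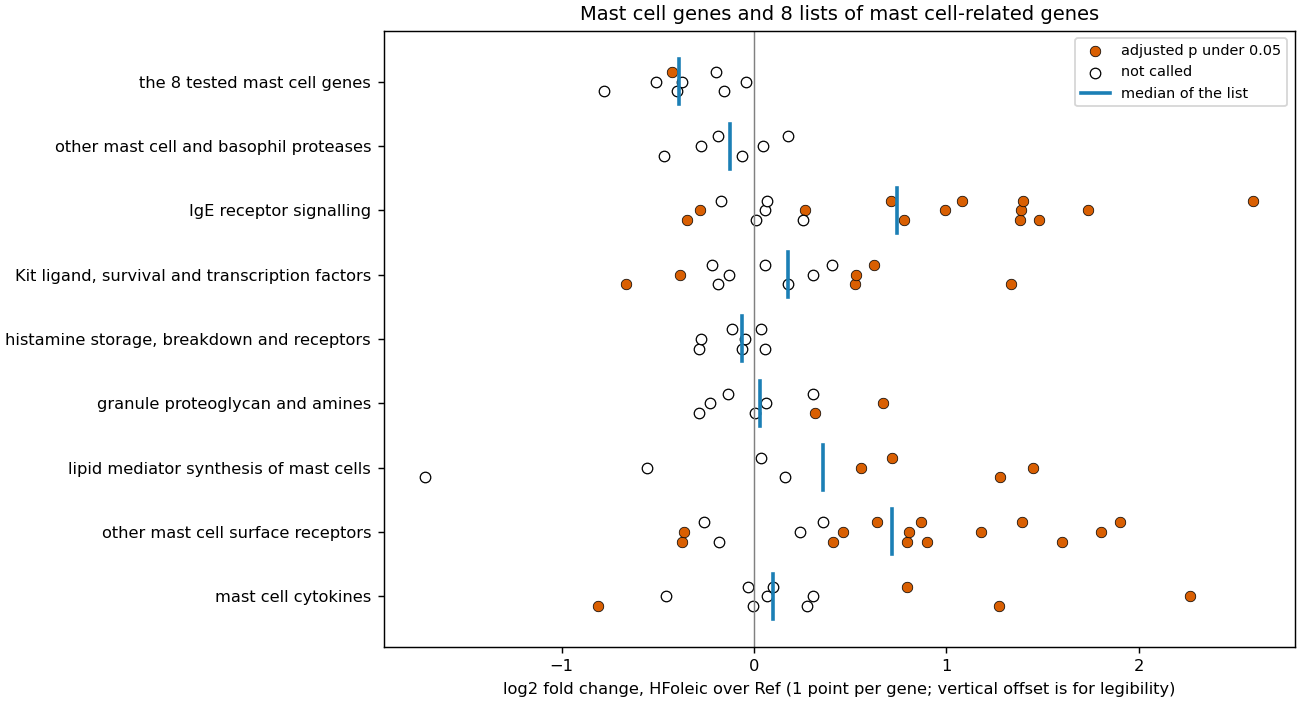
Log2 fold change in HFoleic over Ref (horizontal axis) of the 8 tested mast cell genes and of 8 lists of mast cell-related genes, 1 point per gene; filled points passed an adjusted p of 0.05 and vertical bars are medians. The 8 mast cell genes lie left of 0 with a median of -0.39, and the IgE receptor signalling list has its median at 0.75.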

How the data were processed

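Per the labels and the submitters' processing notes, Cy3-labelled RNA of each mouse was hybridized to 1 single-colour Agilent array, and the deposited values are spot intensity from Agilent Feature Extraction 10.10.1.1, with probe positions on mm9. The authors also deposited a quantile-normalized log2 table of 38168 probes, which served as an alternative.

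Here the median spot intensity was log2-transformed, spots marked non-uniform or as population outliers were set missing, and arrays were quantile-normalized over probes well above background on at least 6 arrays. Spots of a probe were then averaged. limma 3.58.1 in R 4.3.3 fitted 1 mean per group over all 20 arrays, with Benjamini-Hochberg adjustment over 39391 probes and a threshold of 0.05. The fit was tested on simulated data. The number of arrays, 6, 6 and 8, limits the precision. Array names of genes are those of the design. Motifs and shared probe runs were counted in Python. All 9 member genes are named, with up to 4 called genes of each list and 12 genes of known mast cell roles, the 10 most alike names, and, after their values were seen, single genes behind counts of 5 or fewer and neighbours in the protease loci. The members and lists were chosen with earlier results of these data known. Alternatives covered signal, background, normalization, filter, flagged spots, slide, replicate number, array weights, variance, samples in the fit, probe choice and single arrays.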

Additional observations from a re-analysis of the deposited data

Results flagged for a closer look

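In 24 groups of values (8 genes in 3 groups), 2 held a mouse far from the others of its group, and chance alone gives about 1 in 20 such groups. Hdc in HFoleic mouse 5 was at 11.04, against 8.34 in the next mouse of that group. This is also the library with the highest testis marker level, 9.55. Fcer1a in HFoleic mouse 4 was at 6.51, against 6.15 in the next mouse.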

How the results depend on the processing

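Of the member fold changes under all alternatives 785 kept direction and side of the threshold, 22 reversed, 6 lost the call and 3 gained it, and the cause was not tested. The replicate numbers did not pair the mice (correlation of same-numbered deviations -0.47 to 0.14 for HFoleic with Ref and -0.59 to 0.56 for HFepa with HFoleic). With the replicate block 0 members were called in HFoleic against Ref (Kit was -0.39 and not called) and 0 list genes in HFepa against Ref, Cpa3 turned to 0.062 and Fcer1a to 0.10 in HFoleic against Ref, and Cpa3 to -0.15 and Cma1 to -0.025 in HFepa against HFoleic. With array weights 3 members were called in HFoleic against Ref (Mcpt4, Tpsb2 and Kit) and 1 in HFepa against HFoleic (Tpsb2), with 3 list genes in HFepa against Ref and 24 in HFepa against HFoleic, while 40.9%, 3.75% and 11.5% of all probes were called in HFoleic against Ref, HFepa against Ref and HFepa against HFoleic. With slide as a block 4 list genes and 3.29% of all probes were called in HFepa against HFoleic. List genes called in HFepa against Ref were 0 with the processed signal, median centring, no filter, slide as a block, only the compared groups, the mean of all probes, or without the 4 libraries high in testis markers. With median centring Fcer1a was 0.028 in HFepa against HFoleic. Without the 4 libraries, an alternative chosen after seeing the data, 0 members and 25 list genes were called in HFoleic against Ref, with 17.1% of all probes, Fcer1a turned to 0.049 there and to 0.023 in HFepa against Ref, and Hdc to 0.28 in HFepa against Ref. Leaving out single mice gave 0 to 1 members called in HFoleic against Ref, 0 to 4 list genes in HFepa against Ref, and 0 to 24 in HFepa against HFoleic, the highest without HFepa mouse 1, when 7.27% of all probes were called. It moved Cpa3 from -0.37 to 0.074, -0.34 to 0.10 and -0.095 to 0.14 in HFoleic against Ref, HFepa against Ref and HFepa against HFoleic, Fcer1a from -0.11 to 0.063, -0.13 to 0.029 and -0.087 to 0.039, and Hdc in HFepa against Ref from -0.70 to 0.061. The other Kit probes lost the call in HFoleic against Ref without the 4 libraries and in no other alternative.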
